A study of Mus musculus with 8 samples.

Results

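Figla, Nobox, Sohlh1, Sohlh2, Lhx8, Taf4b and Ybx2 are 7 genes that control transcription, or the storage of mRNA, in oocytes. They were taken from the 2 expression tables of the study by gene name. Each of the 7 had 1 locus of its own in each table, not merged with another gene, among 24281 named loci in females and 23944 in males. RNA-Seq had been run on germ cells of mouse gonads at embryonic day (E) 15.5, sorted by the fluorescence of an Oct4-EGFP transgene, which all groups carried. The 8 libraries formed 4 groups of 2, control and Snf5 CKO in either sex. In the Snf5 CKO embryos (Snf5 fx/Δ with TNAP-Cre), germ cells lost Snf5 (Smarcb1), which encodes a core subunit of SWI/SNF complexes that move nucleosomes. TNAP-Cre is a Cre gene placed in Alpl, and its recombination of the floxed allele was incomplete. Controls were a mixture of Snf5 fx/+, Snf5 fx/Δ and Snf5 fx/+ with TNAP-Cre, so some carried 1 deleted allele or the Cre. The labels give the strain as C57BL/6, whereas the methods describe a mixed background. Most libraries pooled cells of several embryos, and 1 male Snf5 CKO library came from a single embryo.

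The products of Figla, Sohlh1 and Sohlh2 are basic helix-loop-helix (bHLH) transcription factors, a family that binds as dimers to short DNA motifs called E-boxes. Nobox and Lhx8 encode homeodomain proteins, Taf4b a germ cell subunit of the general transcription factor TFIID, and Ybx2 (MSY2) a Y-box protein that binds and stabilises mRNA in germ cells. In the ovary, FIGLA activates the zona pellucida genes, and SOHLH1, SOHLH2, LHX8 and NOBOX are needed for primordial follicles to form and oocytes to grow. Sohlh1 and Sohlh2 also act in spermatogonia, the mitotic germ cells of the testis. At E15.5, normal female germ cells are in meiotic prophase and normal male germ cells are entering mitotic arrest as prospermatogonia. The study reports that both steps were impaired in Snf5 CKO. It also reports that the expression profiles of E15.5 Snf5 CKO germ cells lay at an earlier stage in both sexes. The part of this difference in stage in the values below was not tested.

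The 250 bases before the RefSeq start (build GRCm38.p6, which shares its coordinates with mm10) were searched on both strands in the 6 of 7 genes with a promoter window in the table used. The Figla and Sohlh1 windows are shown because these genes had the largest falls of the 7 in females and in males on the log2(FPKM + 1) scale, the Nobox window because its level was lower in both sexes, and the Lhx8 window because the gene moved in opposite directions. Capitals mark the E-box letters CANNTG, which read as CANNTG on the other strand too. Each is written 5′ to 3′ on the strand of its gene, without bases that an annotated exon or a locus of the tables covers (113 at Sohlh1 and 99 at Lhx8). The windows lie at chr6:86016941-86017190 (plus strand), chr2:25847362-25847498, chr6:43309555-43309804 and chr3:154330660-154330810 (minus strand), in the order shown.
Figla: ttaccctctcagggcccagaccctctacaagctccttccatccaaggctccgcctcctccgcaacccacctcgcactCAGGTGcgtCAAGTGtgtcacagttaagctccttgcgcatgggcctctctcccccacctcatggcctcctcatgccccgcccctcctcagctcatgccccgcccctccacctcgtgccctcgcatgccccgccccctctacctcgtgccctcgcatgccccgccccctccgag
Sohlh1: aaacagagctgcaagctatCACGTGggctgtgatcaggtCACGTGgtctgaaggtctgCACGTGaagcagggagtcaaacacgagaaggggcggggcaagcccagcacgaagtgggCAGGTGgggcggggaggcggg
Nobox: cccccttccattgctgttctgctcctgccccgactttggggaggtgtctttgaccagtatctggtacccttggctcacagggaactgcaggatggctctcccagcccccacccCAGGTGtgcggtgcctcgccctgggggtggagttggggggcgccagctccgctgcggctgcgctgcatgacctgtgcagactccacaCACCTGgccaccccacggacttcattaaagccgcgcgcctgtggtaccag
Lhx8: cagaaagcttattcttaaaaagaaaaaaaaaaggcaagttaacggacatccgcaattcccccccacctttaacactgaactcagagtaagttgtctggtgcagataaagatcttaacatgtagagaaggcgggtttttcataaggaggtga

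In the whole 250 bases, Sohlh1 held 5 matches to CANNTG, Figla and Nobox 2 each, Sohlh2 1 and Lhx8 0. Ybx2, which has 2 annotated starts, held 1 and 0. A match occurred in 66.2% of the 32851 windows of this length, so its presence is common. The motif CACGTG, a subset of CANNTG, was found in 6.02% of all windows, and Sohlh1 was the only member that held it, with 3 copies 231, 211 and 192 bases before the start. No member held TAATTG or TGATTG, the letters bound by NOBOX and LHX8, or TATAAA. These 3 motifs occurred in 7.17%, 12.7% and 12.4% of all windows. A match is a run of letters and not evidence of binding.

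Expression is given as FPKM, the fragments assigned to a gene scaled by its transcript length and by the depth of the library, so that genes can be compared. The 2 sexes were quantified in separate tables, so genotypes were compared within a table. The log2 fold change is the difference between Snf5 CKO and control in log2(FPKM + 1), and it is smaller than the true ratio where a gene is low. Each value has its standard error (SE) and an adjusted p from limma with the Benjamini-Hochberg method over all named loci with a mean of at least 1 FPKM. A locus was called lower or higher at a log2 fold change of at least 1 in size and an adjusted p under 0.05. An exact permutation test of a single gene, with 2 libraries per group, has 0.3333 as its smallest two-sided p, so only the fit across all loci gives a test.

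Snf5 itself, listed as Smarcb1, was at 23.4 and 22.3 FPKM in female controls against 4.24 and 2.47 in female Snf5 CKO, and in males it was at 141 and 167 FPKM in controls against 8.73 and 10.1 in Snf5 CKO. The germ cell genes Ddx4 and Dazl were between 203 and 997 FPKM in all 8 libraries, whereas other germ cell markers differed strongly between genotypes. Pou5f1, the gene whose regulatory sequence drives the sorting transgene, was at 8.63 and 16.7 FPKM in female controls against 295 and 333 in female Snf5 CKO. The relative depth of the libraries within a table, estimated from the steps of low FPKM values, ranged from 0.951 to 1.46 times that of control replicate 1. Loci with no gene name held 5.46% to 42.1% of the FPKM of a library. In females the share was 36.7% and 35.3% in controls and 9.94% and 28.2% in Snf5 CKO, for replicates 1 and 2. In males it was 6.56% and 42.1% in controls and 5.46% and 35.4% in Snf5 CKO.

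In control female germ cells at E15.5, Figla was the most abundant of the 7 regulators, at 146 and 213 FPKM. Taf4b (146 and 120 FPKM), Sohlh2 (92.0 and 89.7) and Ybx2 (69.4 and 65.9) followed. Lhx8, Nobox and Sohlh1 were all under 5 FPKM, and Sohlh1 was the lowest at 0.625 and 0.302. No neighbours in this order overlapped, although the lower Figla library and the higher Taf4b library were almost level. In female Snf5 CKO the order was Sohlh2, Taf4b, Ybx2, Figla, Lhx8, Sohlh1 and Nobox. There the Figla libraries lay on either side of those of Ybx2.

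**Figure D1:**
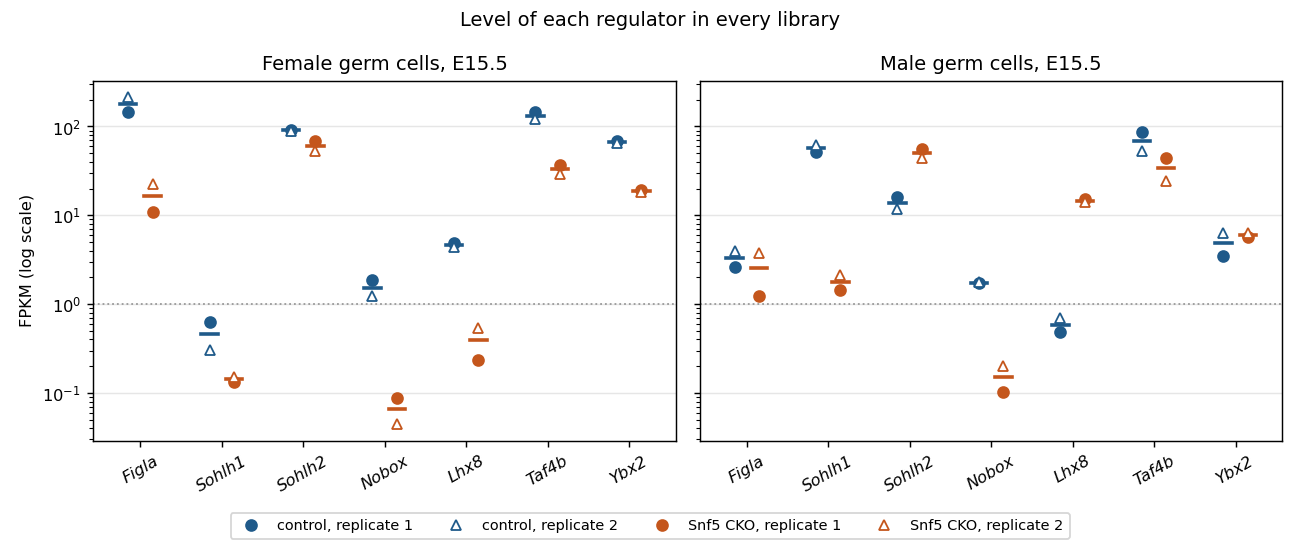
FPKM on a log axis of the 7 regulators in the 4 female libraries (left) and the 4 male libraries (right). Filled circles are replicate 1, open triangles replicate 2 and bars the group mean (n = 2), and the dotted line is the filter at 1 FPKM. In females the 7 regulators are below control in both Snf5 CKO libraries, whereas in males Sohlh2 and Lhx8 are above it.

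Of the 7 regulators, 4 were called lower in female Snf5 CKO (Figla, Lhx8, Taf4b and Ybx2), 1 was tested and not called (Sohlh2), and 2 were below the filter (Nobox and Sohlh1). No regulator was called higher by limma, and 0 were higher by the same size at an unadjusted p under 0.05. Over all tested loci 21.8% were called lower and 17.2% higher (2543 and 2002), a balance that turned to 2086 lower and 2343 higher under the median of ratios, where the same 4 regulators were called lower. For 7 of 7 regulators the higher Snf5 CKO library was below the lower control, as it was for 39.6% of named loci above 0. The median log2 fold change of the 7 was -1.79 with no filter, and that of all named loci above 0 was -0.03.

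Figla, the bHLH factor of the zona pellucida genes, was at 146 and 213 FPKM in female controls and at 10.9 and 22.3 in female Snf5 CKO. The Snf5 CKO libraries were far below both controls, although they also differed from each other. The mean fell from 179 ± 47.4 to 16.6 ± 8.08 FPKM (SD, n = 2), which is 90.7% lower. This is a log2 fold change of -3.41 ± 0.34 (SE, adjusted p = 0.000332), the 42nd lowest of 11642 tested loci. Its locus in both tables is chr6:86017191-86020996 on the plus strand, and the GENCODE span begins further upstream, at 86016171, so that the window shown lies inside it.

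Lhx8, a LIM homeodomain factor, had 4.87 and 4.36 FPKM in female controls and 0.237 and 0.544 in female Snf5 CKO. Only the control group was above 1 FPKM, so this gene passed the filter through its controls. Its mean was 91.5% lower, with a log2 fold change of -2.02 ± 0.21 (SE, adjusted p = 0.000344). Its locus spans chr3:154287908-154330560 in the female table and chr3:154306294-154330560 in the male table, on the minus strand, so the 2 tables did not count over the same span.

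Taf4b, the TFIID subunit, had the second highest control level of the 7 and fell from 146 and 120 FPKM to 36.7 and 29.5. The log2 fold change was -1.97 ± 0.20 (SE, adjusted p = 0.00032). Ybx2, the mRNA-binding Y-box protein, was the most even between replicates, with 69.4 and 65.9 FPKM in controls and 19.3 and 18.5 in female Snf5 CKO. It fell by 1.79 on the log2 scale, with an SE of 0.16 and an adjusted p of 0.000232. For both genes the groups lay apart, and the mean was 75.1% lower for Taf4b and 72.1% lower for Ybx2. The loci are at chr18:14781944-14900359 and chr11:69935899-69941599, both on the plus strand, and a processed pseudogene, AC133172.1, lies on the same strand inside the Taf4b locus.

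Sohlh2, a bHLH factor of germ cells, kept the smallest difference among the 5 tested regulators. It was at 92.0 and 89.7 FPKM in female controls and at 68.6 and 53.5 in female Snf5 CKO. Its log2 fold change was -0.58 ± 0.19 (SE), with a 95% interval of -1.03 to -0.13. The adjusted p was 0.0341, but the size did not reach 1, so the gene was not called. It maps to chr3:55182044-55209957 on the plus strand.

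Nobox, the oocyte homeobox gene, was low in all female libraries, at 1.85 and 1.22 FPKM in controls and 0.0872 and 0.0444 in Snf5 CKO. It was below the filter, and in the fit with no filter it was called lower, with a log2 fold change of -1.24 ± 0.15 (SE, adjusted p = 0.00491). With no filter 13.8% of loci were called lower. Leaving out each library in turn gave log2 fold changes of -1.42 to -1.06, and these fits, with no filter, called 0 of 18660 loci, so they do not test the call. Sohlh1 was at 0.625 and 0.302 FPKM in controls and 0.134 and 0.152 in Snf5 CKO, a difference of -0.35 ± 0.12 (SE, adjusted p = 0.0748 with no filter) at levels too low to rest on. Nobox lies at chr6:43303674-43309554 and Sohlh1 at chr2:25842997-25847248 in the female table, both on the minus strand.

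Without the variance moderation of limma, which pools information over loci, Figla (adjusted p = 0.0711) and Taf4b (0.0505) lost the female call, and their sizes did not change. Markers of pre-granulosa cells, the somatic support cells of the fetal ovary, moved with the female comparison. Of 9 such genes 7 were tested and none was at 0. Of the 7, 4 were called higher and none lower, against 17.2% and 21.8% of all tested loci. All 9 were above control in both Snf5 CKO libraries. Their summed level was 8.21 and 11.5 FPKM in female controls and 33.6 and 31.8 in female Snf5 CKO. Leydig markers were summed at 4.74 and 4.89 FPKM in controls and 12.0 and 11.8 in Snf5 CKO, mostly from a locus that merges Insl3 with Jak3, and stromal markers at 5.88 and 2.11 against 0.916 and 1.54. Sertoli markers were summed at 9.82 and 11.5 FPKM against 14.1 and 15.4, and blood and endothelial markers at 12.5 and 44.9 against 25.8 and 48.1. Of the blood and endothelial markers, Pecam1 rose from 4.10 and 3.65 FPKM to 24.3 and 19.7 and was called higher. The merged locus of Hba-a1 and Hba-a2 was at 8.32 and 41.1 FPKM against 1.47 and 28.4, and Cdh5 was lower at levels under 1 FPKM. The 8 germ cell markers were summed at 4539 and 4357 FPKM in controls and 3109 and 3371 in Snf5 CKO, with 3 called lower and 3 higher. The part of these cells in the values of the 7 regulators was not tested, and fewer cells of a type and less RNA per cell cannot be told apart in such samples.

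In male germ cells the 7 genes did not move one way. Of the 6 tested, 1 was called lower (Sohlh1), 2 higher (Sohlh2 and Lhx8), and 3 were not called (Figla, Taf4b and Ybx2). Nobox was below the filter. Over all tested loci 17.5% were called lower and 14.3% higher. When libraries were rescaled to a common sum, the calls over all loci shifted from 2160 lower and 1772 higher to 2707 lower and 1382 higher, and the median change over tested loci from -0.07 to -0.26. Under the median of ratios there were 1781 lower and 2131 higher, with a median of 0.07. Snf5 CKO was below control without overlap for 3 of the 7 (40.9% of named loci above 0) and above it for 2 (27.9% of these loci), and the groups overlapped for 2. The median log2 fold change of the 7 was -0.37 with no filter, against -0.05 for all named loci above 0.

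Sohlh1, needed for spermatogonia and oocytes, was at 51.1 and 62.1 FPKM in male controls and at 1.44 and 2.14 in male Snf5 CKO. Every Snf5 CKO library was thus far below every control. The mean went from 56.6 ± 7.77 to 1.79 ± 0.498 FPKM (SD, n = 2), 96.8% lower. On the log2 scale the gene fell by 4.37 (SE 0.22, adjusted p = 0.00222), the 13th lowest of 12368 tested loci. In male controls Sohlh1 ranked second among the 7, overlapping Taf4b (85.7 and 52.6 FPKM). In male Snf5 CKO only Nobox was lower, and the Sohlh1 libraries lay between the 2 libraries of Figla. The male locus is at chr2:25842994-25847361.

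Lhx8 was at 0.48 and 0.698 FPKM in male controls and at 15.1 and 14.2 in male Snf5 CKO. The Snf5 CKO libraries were close to each other and well above the controls, and the gene passed the filter through the Snf5 CKO group only. The mean rose from 0.589 ± 0.154 to 14.7 ± 0.593 FPKM (SD, n = 2), a 24.9-fold difference between means. With a log2 fold change of 3.30 ± 0.19 (SE, adjusted p = 0.00222), it ranked as the 48th highest of 12368 tested loci. The male Snf5 CKO level of Lhx8 was above that of the female controls (4.87 and 4.36 FPKM), but the tables were normalized separately and this was not tested.

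Sohlh2 was at 16.0 and 11.7 FPKM in male controls and at 56.4 and 44.3 in male Snf5 CKO, where it had the highest mean of the 7 regulators and overlapped Taf4b. The groups lay apart. It rose 3.64-fold between means, with a log2 fold change of 1.80 ± 0.23 (SE, adjusted p = 0.00463). Without variance moderation the adjusted p was 0.0833 and the call was lost. Sohlh1 and Sohlh2, whose products can pair with each other, thus changed in opposite directions in males.

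Taf4b was lower in each male Snf5 CKO library (44.3 and 24.4 FPKM) than in each control (85.7 and 52.6), but replicate 1 was high and replicate 2 low in both groups. It was not called, with a log2 fold change of -1.01 ± 0.38 (SE, adjusted p = 0.0821). When libraries of the same replicate number were compared with each other, as a block, the SE was 0.07 and the adjusted p 0.000153, and the gene was called lower. Leaving out each library in turn gave log2 fold changes of -1.42 to -0.59. Only the fit without male Snf5 CKO replicate 1, which keeps the low replicate 2 of that group, called the gene.

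Figla was at 2.61 and 3.97 FPKM in male controls and at 1.25 and 3.80 in male Snf5 CKO. Ybx2 was at 3.46 and 6.27 FPKM in male controls and at 5.71 and 6.36 in male Snf5 CKO. For both genes the groups overlapped, and no difference passed the test. The log2 fold change was -0.37 for Figla (95% interval -1.42 to 0.69, adjusted p = 0.502). For Ybx2 it was 0.30 (95% interval -0.43 to 1.04, adjusted p = 0.425). Both intervals, from the fit without a block, reach past the size of the threshold. Replicate 2 was above replicate 1 in both groups for both genes. With the replicate block the SE went from 0.41 to 0.20 for Figla and from 0.29 to 0.17 for Ybx2. Neither gene was called with the block. Compared within a replicate number, Figla was lower and Ybx2 higher in Snf5 CKO both times. Without male Snf5 CKO replicate 1 the Figla value was 0.18, and without male control replicate 1 the Ybx2 value was -0.048.

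Nobox was at 1.74 and 1.76 FPKM in male controls and at 0.103 and 0.203 in male Snf5 CKO, below the filter. With no filter it was called lower at -1.25 ± 0.11 (SE, adjusted p = 0.00651), as were 11.6% of loci. Leaving out each library in turn gave log2 fold changes of -1.32 to -1.19. The call was lost without male control replicate 2 (adjusted p = 0.0543), and the fits without a male Snf5 CKO library called 0 of 19388 loci and do not test it. In both tables Nobox was at 1.22 to 1.85 FPKM in controls and at most at 0.203 in Snf5 CKO.

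Markers of Sertoli cells, the somatic cells that surround male germ cells, moved with the male comparison. Of 8 such genes 7 were tested and all 7 were called higher, against 14.3% of all tested loci. The 8th was below control in both Snf5 CKO libraries. The summed level of the 8 was 151 and 119 FPKM in male controls, against 636 and 972 in male Snf5 CKO. Leydig cell markers went the other way, with 3 of 5 called lower, against 17.5% of all tested loci. Their summed level was 85.7 and 58.2 FPKM in controls and 19.2 and 15.1 in Snf5 CKO. Pre-granulosa markers were summed at 14.9 to 15.3 FPKM in controls and 33.8 to 36.8 in Snf5 CKO, stromal markers at 6.80 to 11.5 and 1.86 to 2.54, and blood and endothelial markers at 39.1 to 59.2 and 39.4 to 40.6. The pre-granulosa list was mixed, since of its 9 genes 4 were tested, with 2 called higher and 1 lower. The 8 germ cell markers were summed at 5188 and 5600 FPKM in controls and 4480 and 5056 in Snf5 CKO, but 4 of them (Dnd1, Mael, Tdrd1 and Sycp3) were called lower and none higher, with a median log2 fold change of -1.36. None of these marker genes was at 0 in all 4 male libraries, and their part in the values of Lhx8, Sohlh1 and Sohlh2 was not tested.

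**Figure D2:**
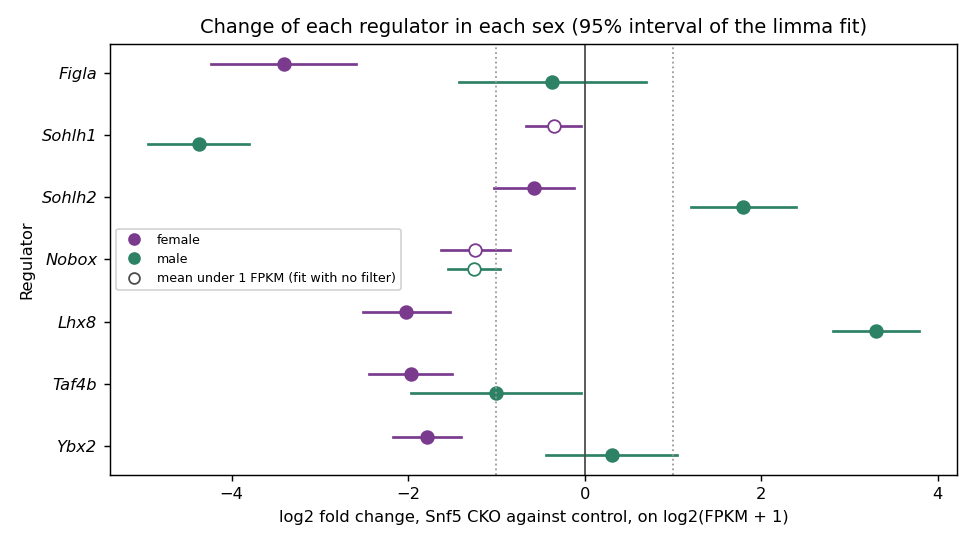
Change (log2 fold change) of each regulator, Snf5 CKO against control, with its 95% interval from limma, for females (purple) and males (green), and dotted lines at -1 and 1. Open circles are genes under 1 FPKM, from the fit with no filter. Lhx8 lies at -2.02 in females and 3.30 in males, Figla at -3.41 and -0.37, and Sohlh1 at -0.35 and -4.37.

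The 2 sexes gave different values for most of the 7, and the difference between sexes was not tested, since the tables were normalized separately. Lhx8 and Sohlh2 were below control in both female Snf5 CKO libraries and above control in both male ones. Nobox, Sohlh1 and Taf4b were below control in the Snf5 CKO libraries of both sexes, although Sohlh1 was under 1 FPKM in all female libraries. Side by side, Sohlh1 was at 0.302 to 0.625 FPKM in female controls and 51.1 to 62.1 in male controls, whereas Figla was at 146 to 213 and 2.61 to 3.97.

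**Figure D3:**
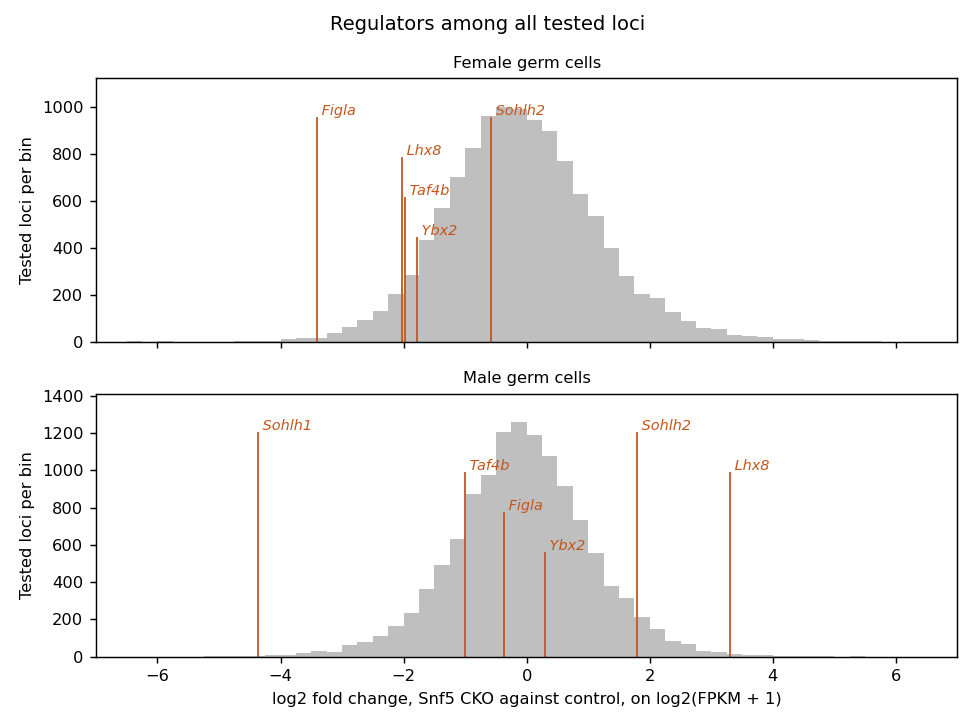
Histogram of the log2 fold change of all tested loci (11642 in females, 12368 in males, bins of 0.25), with the tested regulators marked by lines whose heights carry no value. Figla in females and Sohlh1 and Lhx8 in males lie in the tails, and Figla and Ybx2 in males lie in the middle.

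The genes whose pattern over the libraries was nearest to each regulator were found by the root mean square (RMS) difference of log2(FPKM + 1), centred on the mean of the gene within a table. For Taf4b, over 8 libraries, they were Herc1 (RMS 0.05) and Alms1 (RMS 0.11). Herc1 was at 51.0 and 40.5 FPKM in female controls and 11.6 and 9.28 in female Snf5 CKO, and at 24.0 and 13.0 against 11.9 and 6.04 in males, so it shared the high replicate 1 of Taf4b. The nearest to Figla were Syce3 (RMS 0.26), which encodes a synaptonemal complex protein, and 2310010J17Rik (RMS 0.30). Syce3 was at 856 and 1073 FPKM in female controls and 61.3 and 115 in female Snf5 CKO, and between 21.7 and 56.2 in all male libraries. For Ybx2 they were Mybl1 (RMS 0.11), a transcription factor of meiotic germ cells, and Efcab2 (RMS 0.12).

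Sohlh2 had its nearest patterns in Klhl26 (RMS 0.09) and Ptpn9 (RMS 0.11), over 8 libraries. Klhl26 was at 16.0 and 15.9 FPKM in female controls and 11.8 and 10.9 in female Snf5 CKO, and rose from 1.21 and 0.685 to 6.00 and 5.33 in males. Lhx8 had no close match. Klhl22 (RMS 0.45) and Hes6 (RMS 0.47) were the nearest, and Hes6 was at 12.9 and 18.9 FPKM in male controls against 97.4 and 120 in male Snf5 CKO. Sohlh1, which could be placed in males only, over 4 libraries, was nearest to Gm364 (RMS 0.09) and Plac8 (RMS 0.11). Gm364 was at 51.5 and 60.1 FPKM in controls against 1.40 and 2.55 in Snf5 CKO. Nobox was under the filter in both tables and was not placed. These distances describe the libraries, which share replicates and batches, and carry no test.

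A list of 18 genes was taken as effectors of these regulators in the oocyte, and most were near 0 in females at E15.5. Some of the 18, such as Kit and Uchl1, were already expressed in female controls at this stage. Of 18, 13 were under 1 FPKM, and Zp2, Oosp1 and H1foo were listed at 0 in the 4 female libraries. Of the 5 tested, 3 were called higher and 1 lower in female Snf5 CKO, against 17.2% and 21.8% of all tested loci. Npm2, the 5th, shares its female locus with Xpo7 and was not called. Over the 18 genes, 6 were below control in both Snf5 CKO libraries and 5 above it. Of named loci above 0, 39.6% were below control in this way. Gdf9, under the filter, was at 1.54 and 0.49 FPKM in controls and 0.0539 and 0.205 in Snf5 CKO. Ooep, a subunit of the subcortical maternal complex of eggs, was at 1.44 and 1.63 FPKM in controls and 10.1 and 14.8 in Snf5 CKO (log2 fold change 2.39). Its partner Tle6 rose by 1.43 on the log2 scale. Kit, the receptor for KIT ligand, rose from 12.8 and 12.7 FPKM to 63.8 and 46.7 (log2 fold change 2.02). Uchl1, a ubiquitin hydrolase, fell from 15.9 and 21.9 FPKM to 4.76 and 4.67 (log2 fold change -1.78).

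In males 8 of the 18 effector genes were tested, 5 were called lower and 2 higher, against 17.5% and 14.3% of all tested loci, and the median of the 8 was -1.13, against -0.07 for all tested loci. Uchl1 fell from 513 and 628 FPKM to 24.6 and 37.2 (log2 fold change -4.18). Nlrp14, a maternal-effect gene, was at 5.92 and 5.59 FPKM in controls and 0.146 and 0.138 in Snf5 CKO (log2 fold change -2.56). Zp1, a zona pellucida gene, fell from 3.61 and 2.49 FPKM to 0.0608 and 0.283 (log2 fold change -1.78). Nlrp14 and Zp1 were above 1 FPKM in controls only. Both thus passed the filter through their controls, which favours lower calls in this count. Ooep rose from 36.6 and 52.0 FPKM to 218 and 278 (log2 fold change 2.47). Kit was also called higher in males, at 1.70. Tle6 fell by 1.24 on the log2 scale in males, the opposite of its female direction, and this difference was not tested.

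Partners and paralogs of the regulators formed a list of 15 genes. In females 12 were tested, 5 were called higher and 1 lower, against 17.2% and 21.8% of all tested loci, with a median of 0.71 against -0.14. Lhx1, a LIM homeobox paralog of Lhx8, rose from 1.24 and 1.09 FPKM to 9.68 and 7.66 (log2 fold change 2.15). The Y-box paralogs of Ybx2 rose while Ybx2 fell, with Ybx1 going from 52.9 and 56.5 FPKM to 171 and 175 (log2 fold change 1.65) and Ybx3 from 56.9 and 63.9 to 172 and 176 (log2 fold change 1.51). Ldb1, the cofactor of LIM homeodomain proteins, rose by 1.45 on the log2 scale. When all libraries were rescaled by the median of ratios, the median of all tested loci moved to 0.02, and each of these genes stayed called.

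In males 13 of the 15 were tested, 4 were called higher and 3 lower, against 14.3% and 17.5% of all tested loci. When libraries were rescaled to a common sum, 2 were higher, since Tcf12, an E protein named after its values were seen, and Taf12 lost their calls. Lhx1 rose from 5.58 and 4.84 FPKM to 45.0 and 36.7 (log2 fold change 2.75), the same direction as Lhx8 in that sex. Ybx3 rose from 31.4 and 32.7 FPKM to 154 and 148. Tbpl1, a TBP-related factor of germ cells, fell by 1.30 on the log2 scale and Ldb2, a LIM cofactor, by 1.11. Taf4, the paralog of Taf4b (listed in the tables under its older symbol Taf4a), was between 2.30 and 9.83 FPKM in all 8 libraries and was not called in either sex. Taf12, a TFIID subunit that pairs with TAF4 proteins and was singled out after its values were seen, was called lower in females (-1.26) and higher in males (1.03), although the rescaled male value was 0.85.

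The last list held 6 other factors of oocyte growth. Stat3, a transcription factor activated by cytokine receptors, was called lower in females (log2 fold change -1.44). It went from 39.3 and 27.7 FPKM to 13.6 and 9.72, and was the only call among the 5 tested there. Of all tested loci in females 21.8% were lower. Foxo3 went from 5.51 and 5.72 FPKM to 2.45 and 2.31 in females, at -0.97 (adjusted p = 0.004), short of the size threshold. It was called there at -1.02 when libraries were rescaled to a common sum. In males 2 of 6 were called lower, against 17.5% of all tested loci. Gtf2a1l, a germ cell form of TFIIA, fell from 2.64 and 4.22 FPKM to 0.123 and 0.213 (log2 fold change -1.90). It passed the filter through its controls. Foxo3, which holds primordial follicles at rest, fell from 8.69 and 8.97 FPKM to 2.93 and 4.53 (log2 fold change -1.08), a call that was lost at -0.94 under the median of ratios.

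**Figure D4:**
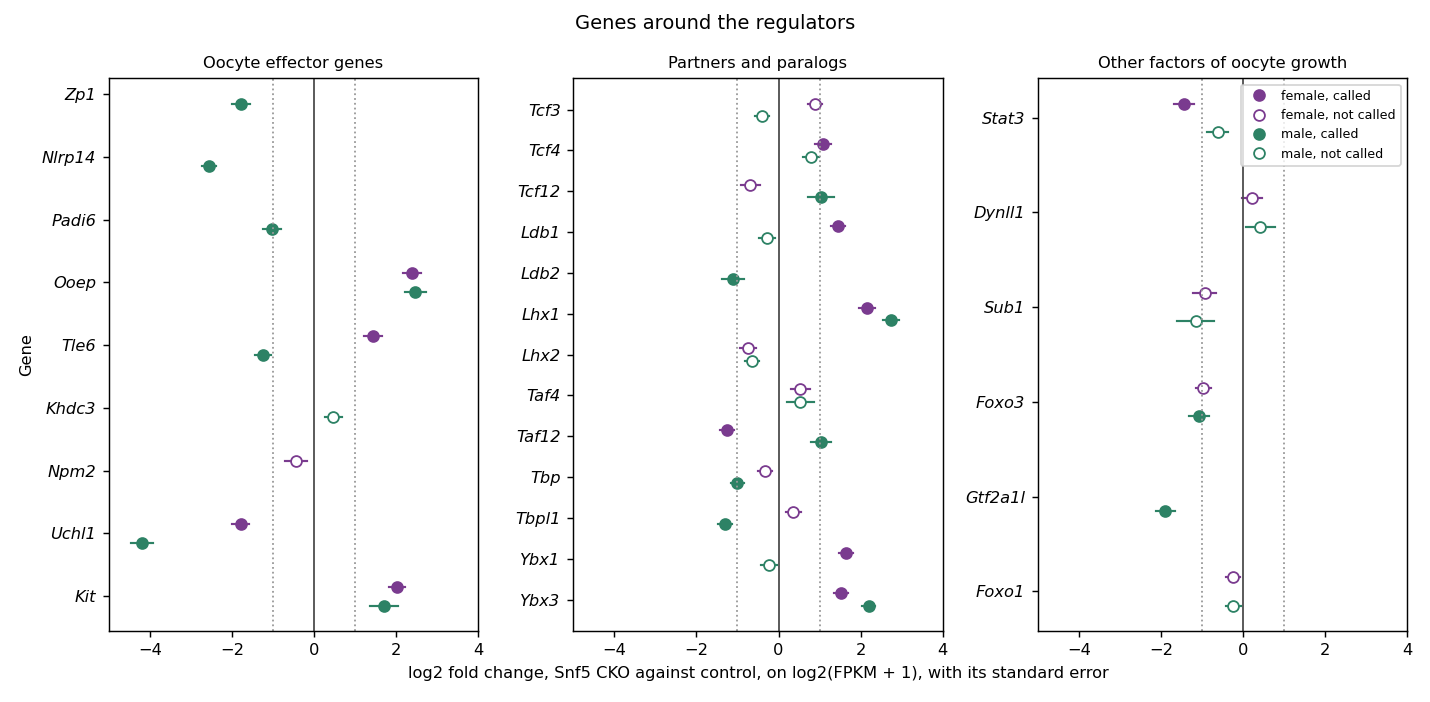
Change (log2 fold change) of the tested genes of the 3 lists, Snf5 CKO against control, with its standard error, in females (purple) and males (green), and filled circles for called genes. Ooep, Kit, Lhx1 and Ybx3 are higher and Uchl1 is lower in both sexes, and Tle6 and Taf12 are called in opposite directions, the male Taf12 call being lost when libraries are rescaled to a common sum.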

How the data were processed

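The authors aligned the reads to mm10 with TopHat and made an FPKM table for each sex with Cufflinks. The submitters' processing notes name TopHat2 2.2.1 and Cuffdiff 2.1.1, and the methods give other versions. The deposited tables hold an FPKM value per locus and library, its confidence bounds (16 columns, not used) and a status. Whether the libraries were counted by strand is not given in the sources used here. The tables hold no counts, so depth is known only in relative terms and no counting interval is given. Starts are counted from 0 in the tables, and 1 was added.

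Genotypes were compared within each table by limma 3.58.1 (R 4.3.3) on log2(FPKM + 1), using lmFit and eBayes with a trend, over named loci whose mean reached 1 FPKM. The fit was tested on simulated data in which only well expressed loci were changed, with independent noise. Changes of low loci and a shared replicate batch were not covered. Promoter windows came from RefSeq, gene spans from GENCODE, and figures from matplotlib 3.10.9. The male column names call the replicate numbers experiments, and the labels name the raw files of replicates 1 and 2 in different styles. The replicate 2 minus replicate 1 deviations of control and Snf5 CKO correlated at 0.504 over 11642 female loci and 0.595 over 12368 male loci, so the number was taken as a shared batch and used as a block in an alternative. The methods call the libraries biological duplicates. The named genes were the 7 regulators, Smarcb1, up to 4 called genes per list and sex with the largest change, and the 2 nearest patterns. The members and lists were chosen with earlier results of these data known. Alternatives changed the pseudocount (0.1), the filter, the scaling, the moderation, the loci used and the libraries.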

Additional observations from a re-analysis of the deposited data

Results flagged for a closer look

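Lhx8 and Sohlh2 moved in opposite directions in the 2 sexes, with both Snf5 CKO libraries on the same side of both controls in each sex. The log2 fold change of Lhx8 was -2.02 in females and 3.30 in males. For Sohlh2 it was -0.58 in females, where the gene was not called, and 1.80 in males. The difference between the sexes was not tested, because the tables were normalized separately.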

How the results depend on the processing

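Over 16 alternatives per sex, the count of regulators called lower in females was 3 to 5 except without variance moderation (2), and the count called higher in males was 2 except without it (1). The count lower in males was 2, in place of 1, with no filter, with libraries rescaled to a common sum, with the replicate block and without male Snf5 CKO replicate 1. Leaving out 1 library gave 1 to 2 lower in males, and the other counts of regulators did not move when 1 library was left out. The block changed the call of male Taf4b (adjusted p = 0.000153) and of no other regulator. Reversed signs occurred for male Figla (0.18 without male Snf5 CKO replicate 1, range -0.91 to 0.18 over the libraries left out) and male Ybx2 (-0.048 without male control replicate 1, range -0.048 to 0.66). For both genes replicate 2 was above replicate 1 in both groups, and each of these fits leaves the replicates unbalanced between groups. The cause of the reversals was not tested. With a minimum of 5 FPKM, female Lhx8 and male Figla had no value. For Nobox in both sexes and Sohlh1 in females the alternatives with no filter were chosen after seeing the data, and Nobox lost its call without moderation (adjusted p = 0.0867 in females, 0.0541 in males). In the fixed lists, without moderation, no effector gene was called in females, effector genes fell to 1 lower and 0 higher in males, partners to 1 lower and 1 higher in males, and no other factor of oocyte growth was called in either sex. Of the other factors of oocyte growth, 2 in place of 1 were lower in females without female control replicate 1 or female Snf5 CKO replicate 2, and 1 in place of 2 was lower in males without male control replicate 2 or male Snf5 CKO replicate 1. The tables give no counts, so the precision of levels under 1 FPKM is not known.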
